A study of Mus musculus with 12 samples.

Results

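The angiogenic factors described here were 10 genes, chosen by their symbols from the 55487 genes listed in each expression table: the ligands Vegfa, Vegfb, Vegfc, Pgf, Angpt1, Angpt2, Apln and Angptl4, the co-receptor Nrp1 and the transcription factor subunit Hif1a. Male C57BL/6JNarl mice, 6 weeks old and carrying no engineered allele named in the labels, received full-thickness punch wounds on the back, 2 per animal. The sham group was dressed daily with 200 µL of Pluronic F127 gel alone (P-F127), and the treated group with the same gel holding 10 µM capsaicin (CAP), the pungent compound of chili peppers and an agonist of the ion channel TRPV1. Wound tissue of each group was sequenced as messenger RNA at day 3 and at day 6, with 3 libraries in each of the 4 groups and 12 libraries in all. There was no unwounded skin and no wound without gel among them, and whether some libraries came from wounds of the same mouse is not stated, so the tests measure only the spread between these libraries.

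New vessels in a healing wound sprout from existing ones. Factors of the VEGF family act on receptor tyrosine kinases of endothelial cells, the angiopoietins act on the receptor Tek, and apelin, the product of Apln, acts on the receptor Aplnr. Hif1a encodes the oxygen-regulated subunit of HIF-1, which is controlled mainly through protein stability and which is known to induce Vegfa, Pgf and Angptl4 among other genes when oxygen is low. The samples were pieces of whole tissue, in which fewer cells of a type and less RNA per cell cannot be told apart.

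Levels are given in TPM, a measure of transcript abundance scaled to transcript length and to the total of each library, so that levels of different genes could be compared. TPM does not keep the sequencing depth, which is unknown, and counting error could not be given. A gene was counted as past the threshold in a comparison when it differed 2-fold or more with an unadjusted limma p under 0.05. The study used the same cut-offs of p and fold, but names DEseq or DEseq2 and not limma for its tests. The p adjusted over all genes tested is given beside the threshold. With 3 libraries against 3, an exact permutation test cannot give a p below 0.1.

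The libraries were alike in the number of genes at 0.3 TPM or more, between 18533 and 19325, and in the share of mitochondrial transcripts, between 5.21% and 6.56%. One of them stood apart. Replicate 2 of CAP at day 6 held the fewest genes, had 14.1% of its TPM in its 10 most abundant genes, against 8.27% at the lowest, and had the highest Krt10 level of the day 6 libraries, 40800 TPM. It was also the lowest of the day 6 libraries for each of the 10 factors. The differences in CAP wounds at day 6 are therefore given with and without it. Without it 0.931% of all genes were lower in CAP than in P-F127 wounds past the threshold at day 6 and 62.9% had a negative difference, with a median of -0.083.

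All 10 factors were measured above 1 TPM in every library. Hif1a and Vegfa were the most abundant, with means of 185 ± 44.9 TPM and 118 ± 42.8 TPM (SD, n = 3) in P-F127 wounds at day 3. Angptl4 and Nrp1 followed at 71.1 ± 24.2 and 68.2 ± 10.4 TPM, which differed by less than their spread. Vegfb stood at 24.2 ± 1.92 TPM, Apln at 16.3 ± 11.6 TPM and Pgf at 14.7 ± 7.19 TPM. The angiopoietins and the lymphatic growth factor Vegfc were the least abundant, with 5.48 ± 1.09 TPM for Angpt2, 4.05 ± 0.349 TPM for Angpt1 and 2.01 ± 0.287 TPM for Vegfc. Vegfc was last in all 4 groups by its mean.

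**Figure D1:**
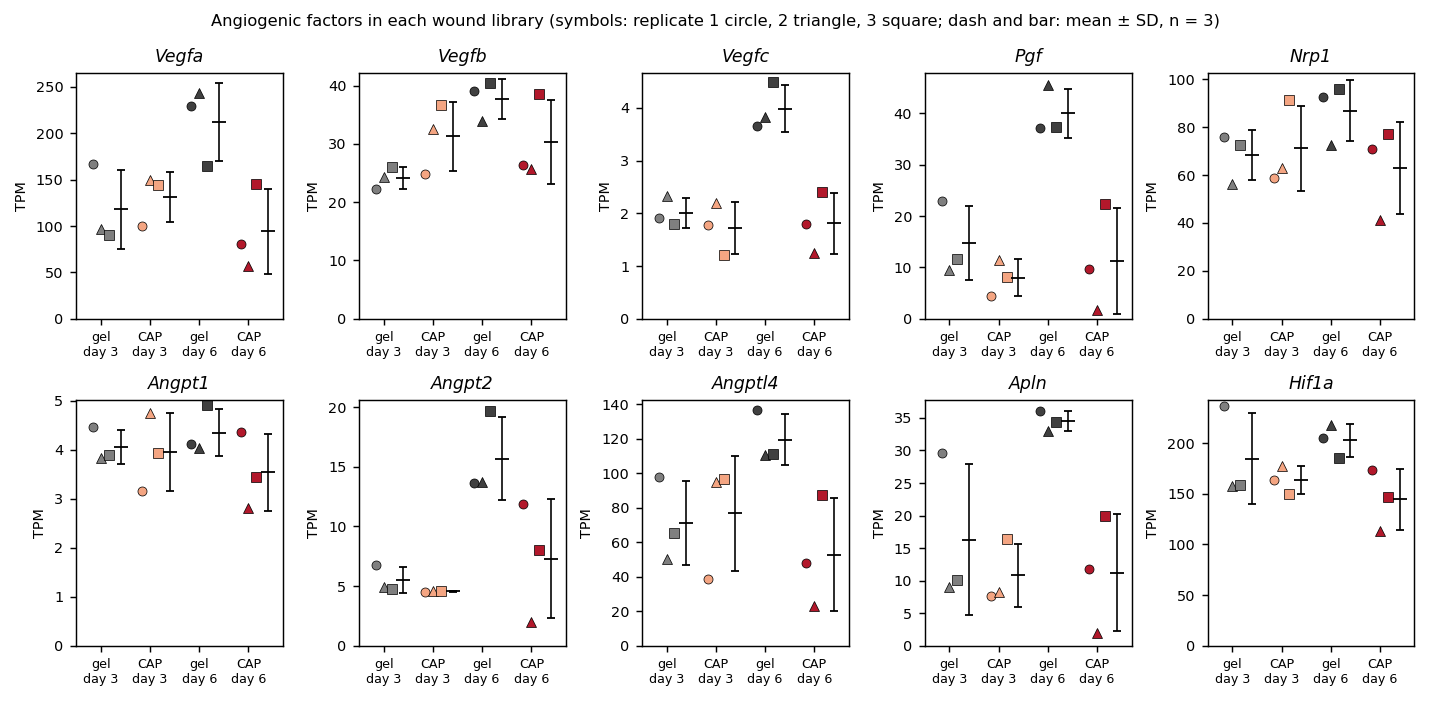
Level of each angiogenic factor (vertical axis, TPM, starting at 0) in each of the 12 libraries, by group (horizontal axis; gel is P-F127 alone); circles, triangles and squares are replicates 1, 2 and 3, and the dash with its bar is the mean ± SD of 3 libraries. The 3 P-F127 libraries at day 6 lie above the 3 CAP libraries at day 6 for Vegfa, Vegfc, Pgf, Angpt2, Angptl4, Apln and Hif1a.

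In wounds under gel alone, the factors were higher at day 6 than at day 3. Pgf, Angpt2 and Apln rose past the threshold, which 2.13% of the 18368 genes tested did in the same direction. All 10 differences were positive, as were 50.7% of all differences, and their median was 0.84 on the log2 scale against 0.00 over all genes. The groups did not overlap for 6 factors (Vegfb, Vegfc, Pgf, Angpt2, Angptl4 and Apln), a separation that 10.8% of all genes showed upwards. After adjustment over all genes 2 factors stayed under 0.05, Angpt2 and Vegfb, against 1.14% of all genes in this direction. These adjusted values depended on the fit. On the 6 libraries of this comparison 420 genes of the whole table were under an adjusted 0.05. A joint fit of all 12 libraries left 0 genes under it, and 1 was left without replicate 3 of P-F127 at day 3. The adjusted p-values given below for this comparison are those of its own 6 libraries.

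Angpt2, which opposes or supports Tek signalling according to context and is released by activated endothelium, was measured in P-F127 wounds at 6.74, 4.95 and 4.75 TPM at day 3. At day 6 it was measured at 13.7, 13.7 and 19.7 TPM. Every day 6 library was above every day 3 library, by 1.50 ± 0.20 (log2, SE; 2.82-fold, limma adjusted p = 0.0202).

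Pgf, the placental growth factor that binds the VEGF receptor Flt1, was at 22.9, 9.58 and 11.6 TPM at day 3 and at 37.2, 45.6 and 37.4 TPM at day 6. The groups did not overlap, although replicate 1 at day 3 lay between the other day 3 libraries and the day 6 libraries. The difference was 1.54 ± 0.30 (log2, SE; 2.91-fold, limma adjusted p = 0.0524). Apln was at 29.7, 9.03 and 10.1 TPM at day 3 and at 36.0, 33.0 and 34.4 TPM at day 6. Replicate 1 at day 3 was again the one near the day 6 level, and the difference was 1.30 ± 0.41 (2.46-fold, limma adjusted p = 0.183). The Apln difference was no longer past the threshold without replicate 2 or without replicate 3 of P-F127 at day 3, at 0.99 and 1.07.

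Vegfa, the main growth factor of endothelial cells, was at 167, 96.4 and 90.4 TPM at day 3 and at 229, 243 and 164 TPM at day 6 in P-F127 wounds. Its groups overlapped through replicate 1 at day 3, and the difference of 0.88 ± 0.26 was under 2-fold. Without that replicate it was 1.16 and past the threshold, as was Angptl4 at 1.05, so that 5 factors were past it in place of 3. Vegfb, a ligand of Flt1, had a smaller and less scattered difference, from 22.2, 24.3 and 26.0 TPM to 39.0, 33.8 and 40.3 TPM (0.64 ± 0.11, limma adjusted p = 0.0332). Vegfc went from 1.91, 2.33 and 1.79 TPM to 3.65, 3.82 and 4.49 TPM, just under 2-fold (0.96 ± 0.19, limma adjusted p = 0.0529). Nrp1, Hif1a and Angpt1 overlapped between the days, with differences of 0.35, 0.16 and 0.10.

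In wounds under CAP, none of the 10 factors was past the threshold between day 3 and day 6, against 2.79% of all genes in either direction. At an unadjusted limma p under 0.05 the number was also 0, against 11.6% of all genes. Their median difference was -0.18, and 8 of the 10 were negative, as were 57.0% of all genes. The direction of these differences depended on replicate 2. Without it 6 were positive, with a median of 0.06, and 1 factor, Angpt2, was past the threshold, against 1.28% of all genes higher. The Angpt2 difference was then 1.08, from 4.53, 4.62 and 4.59 TPM at day 3 to 11.9 and 8.05 TPM at day 6. Replicate 2 itself was at 1.98 TPM. Without that library Pgf was at 0.98 and Apln at 0.59 in place of -0.04 and -0.37. Vegfa stayed negative, at -0.57 with replicate 2 and -0.26 without it, and its groups overlapped. Both time comparisons were fitted separately, and the difference between them is tested below as the change of the CAP effect.

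At day 3, CAP and P-F127 wounds did not differ in any factor past the threshold, against 1.58% of the 18330 genes tested in either direction (212 lower and 78 higher, or 160 lower and 101 higher with quantile normalization). The count at an unadjusted limma p under 0.05 was 0 as well, against 6.60% of all genes. The differences lay between -0.87 for Pgf and 0.36 for Vegfb, with 4 positive and 6 negative (62.2% of all genes were negative). Vegfa was at 100.5, 149.9 and 144 TPM under CAP against 167, 96.4 and 90.4 TPM under P-F127, and the groups overlapped, with a 95% interval of the difference from -0.44 to 0.83. Pgf was at 4.41, 11.5 and 8.10 TPM under CAP against 22.9, 9.58 and 11.6 TPM under P-F127, with an interval from -1.89 to 0.16. Without replicate 2 of CAP at day 3 the Pgf difference was -1.18 and past the threshold. Angpt2 was the only factor whose groups did not overlap (8.75% of all genes did not overlap in this direction), with a difference of -0.24, from 4.53 to 4.62 TPM under CAP and from 4.75 to 6.74 TPM under P-F127.

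At day 6 the factors were lower in CAP wounds than in P-F127 wounds. Pgf, Apln, Angptl4, Vegfa and Vegfc fell past the threshold, which 2.34% of the 18323 genes tested did in the same direction. The differences were negative for all 10 factors and for 65.7% of all genes, with a median of -1.20 against -0.12 over all genes. In 7 factors every CAP library lay under every P-F127 library, a separation that 18.0% of all genes showed downwards. After adjustment limma left 0 genes of the whole table under 0.05, against 3517 at an unadjusted p under 0.05. The factors held 6 at an unadjusted p under 0.05, as did 12.5% of all genes in this direction, and the adjusted p of the 10 factors lay between 0.206 and 0.440. The split of all calls at day 6 moved with the scaling. TPM as deposited gave 429 genes lower and 268 higher (1.46% of those tested), median-ratio scaling 287 lower and 399 higher, and quantile normalization 244 lower and 406 higher. The factors were lower past the threshold in 5, 5 and 4 cases under these scalings and higher in none, all 10 stayed negative, and their median was -1.20, -1.08 and -1.07. The share of all genes with a negative difference was 50.7% with median-ratio scaling.

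Pgf had the largest difference of the 10 at day 6. It was measured at 9.74, 1.69 and 22.3 TPM in the CAP libraries and at 37.2, 45.6 and 37.4 TPM in the P-F127 libraries. The CAP libraries spanned a wide range, with replicate 2 far under the others, but did not reach the P-F127 libraries. The difference was -2.45 ± 0.82 (log2, SE; 5.45-fold lower, limma adjusted p = 0.225), and -1.43 without replicate 2, still past the threshold.

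Apln, whose product is a ligand made by sprouting endothelium, was at 11.9, 1.97 and 19.9 TPM under CAP and at 36.0, 33.0 and 34.4 TPM under P-F127. The 3 P-F127 values lay close together and all CAP values were under them. The difference was -2.13 ± 0.76 (4.37-fold lower, limma adjusted p = 0.229), and -1.16 without replicate 2, again past the threshold.

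Vegfa was at 80.5, 57.0 and 146 TPM under CAP and at 229, 243 and 164 TPM under P-F127. Replicate 3 of CAP came near the lowest P-F127 library without reaching it. The difference was -1.26 ± 0.34 (2.39-fold lower, limma adjusted p = 0.209). Angptl4, a secreted regulator of lipoprotein lipase with reported effects on vessels, was at 47.7, 22.7 and 87.5 TPM under CAP and at 136, 111 and 111 TPM under P-F127. Its groups did not overlap either, and its difference was -1.38 ± 0.44 (2.60-fold lower, limma adjusted p = 0.217). Vegfc, the ligand of the lymphatic receptor Flt4, was at 1.79, 1.24 and 2.40 TPM under CAP and at 3.65, 3.82 and 4.49 TPM under P-F127, without overlap (-1.14 ± 0.27, 2.20-fold lower, limma adjusted p = 0.206). Without replicate 2 these 3 genes kept an unadjusted limma p of 0.0155, 0.0141 and 0.00692 but were under 2-fold, at -0.95, -0.88 and -0.90, so that 2 factors in place of 5 were past the threshold and all 10 differences stayed negative. The 5 became 3 without replicate 1 of P-F127, where Angptl4 and Apln had limma p-values of 0.0516 and 0.0636, and 3 without replicate 2 of P-F127, where Pgf and Apln had 0.0578 and 0.0588. Apln also missed it without replicate 3 of P-F127 (a limma p of 0.0609).

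Angpt2 was at 11.9, 1.98 and 8.05 TPM under CAP and at 13.7, 13.7 and 19.7 TPM under P-F127 at day 6. The groups did not overlap, but the spread of the CAP libraries was wide and the difference of -1.40 ± 0.61 had an unadjusted limma p of 0.0536. Without replicate 2 it was -0.65, and without replicate 1 of CAP it was -1.92 and past the threshold. Hif1a was at 174, 114 and 147 TPM under CAP and at 205, 218 and 185 TPM under P-F127, lower in every CAP library but by 1.42-fold only (-0.50 ± 0.17, limma adjusted p = 0.222, exact permutation p = 0.1). Without replicate 2 its difference was -0.34.

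Nrp1, a co-receptor for VEGF and semaphorins, overlapped between the groups at day 6, at 70.7, 41.2 and 77.1 TPM under CAP and 92.5, 72.4 and 95.8 TPM under P-F127 (-0.50, 95% interval from -1.09 to 0.08). Vegfb overlapped as well, with CAP libraries at 26.4, 25.8 and 38.6 TPM (-0.34, interval from -0.76 to 0.08). Angpt1, the ligand of Tek made mainly by perivascular cells, differed least, at 4.36, 2.80 and 3.44 TPM under CAP and 4.11, 4.02 and 4.90 TPM under P-F127 (-0.31, interval from -0.82 to 0.20). Without replicate 2 the differences of Nrp1, Vegfb and Angpt1 were -0.22, -0.24 and -0.16.

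**Figure D2:**
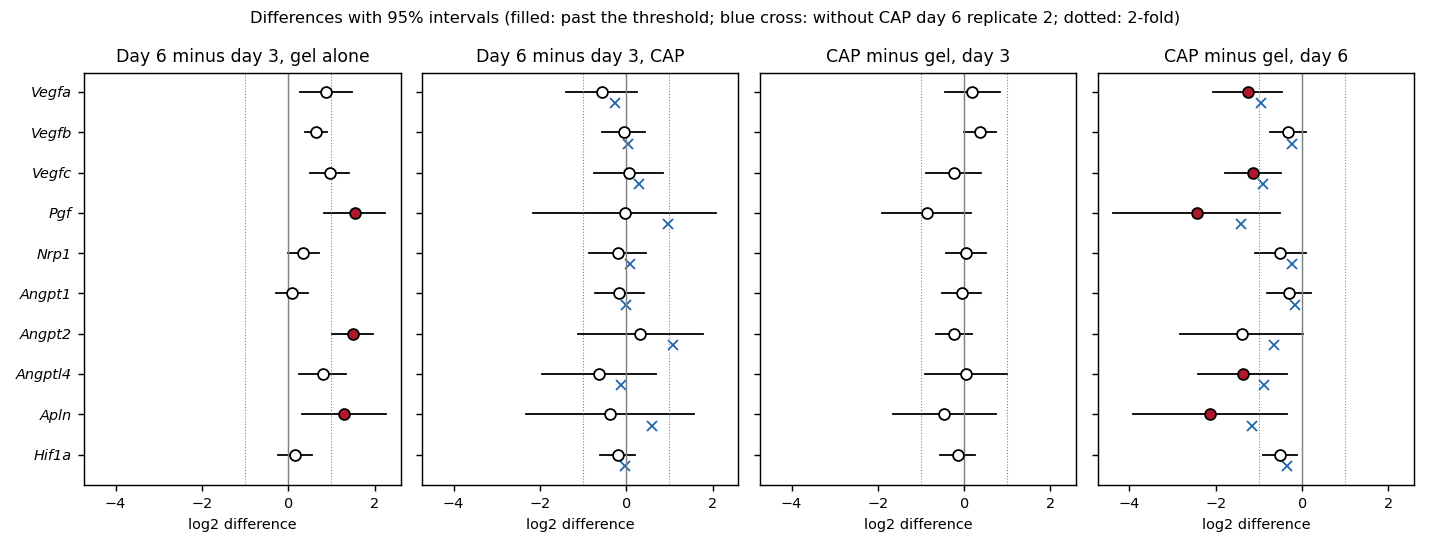
Difference of each factor in log2(TPM + 0.1) with its 95% interval (horizontal axis) in the 4 comparisons; filled points are past the threshold, dotted lines mark 2-fold, and blue crosses give the difference without replicate 2 of CAP at day 6. At day 6, 5 of the 10 factors are filled and lie on the negative side, and the crosses stay negative but move towards 0, with Pgf at -1.43 and Apln at -1.16 still beyond 2-fold.

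The change of the CAP effect from day 3 to day 6 was tested over all 12 libraries. It was negative for all 10 factors and for 56.4% of all genes, with a median of -1.03 against -0.06. Vegfa was the 1 factor past the threshold (2.73% of all genes were past it in this direction), at -1.45 ± 0.48 (unadjusted limma p = 0.0110, adjusted p = 0.428, exact permutation of treatment within days p = 0.055). That permutation assumes no CAP effect at either day, so it cannot by itself decide whether the effect changed. The CAP effect on Vegfa was 0.19 at day 3 and -1.26 at day 6, and without replicate 2 of CAP at day 6 the change was -1.14 and still past the threshold. Vegfb and Vegfc had changes of -0.70 and -0.90 with unadjusted limma p-values of 0.0168 and 0.0387, both under 2-fold, so that 3 factors were under an unadjusted p of 0.05, against 5.88% of all genes in this direction. Pgf and Apln had larger changes, -1.58 and -1.67, with wider intervals that included 0. Without replicate 2 of CAP at day 6 the changes of Vegfb, Vegfc, Pgf and Apln were -0.59, -0.66, -0.56 and -0.70. The number of factors past the threshold was 5 without replicate 3 of CAP at day 6, which had the highest Vegfa, Pgf, Angptl4 and Apln levels of its group, and it was 2 without replicate 1 of CAP at day 6, replicate 1 or 3 of CAP at day 3, or replicate 1 or 2 of P-F127 at day 3.

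Angpt1 and Angpt2 bind the same receptor, Tek, and their ratio within a library does not depend on scaling. The Angpt2 level was 1.51, 1.29 and 1.22 times the Angpt1 level in P-F127 wounds at day 3 and 3.32, 3.40 and 4.02 times at day 6. In CAP wounds it was 1.44, 0.973 and 1.17 times at day 3 and 2.73, 0.709 and 2.34 times at day 6. Replicate 2 of CAP at day 6 had the lowest ratio of all 12 libraries, and the other two CAP libraries at day 6 lay between the day 3 libraries and the P-F127 libraries at day 6. The log2 ratio was 1.84 ± 0.15 in P-F127 and 0.73 ± 1.07 in CAP wounds at day 6 (SD, n = 3), a difference of -1.11 (exact permutation test, 2-sided, p = 0.1, the smallest it can give; adjusted over 4 comparisons p = 0.2). Without replicate 2 the difference was -0.50. From day 3 to day 6 the ratio was higher by 1.42 under P-F127 (exact permutation p = 0.1, adjusted p = 0.2) and by 0.49 under CAP (exact permutation p = 0.5, adjusted p = 0.5), and by 1.10 under CAP without replicate 2.

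The receptors and further ligands of these factors were described as a list of 10 genes, of which 9 were tested. Apela, another ligand of Aplnr, was listed at 0 in every library. In P-F127 wounds 4 of the 9 rose from day 3 to day 6, against 2.13% of all genes: Flt1 (1.58), the decoy and signalling receptor for Vegfa, Vegfb and Pgf, Flt4 (1.80), the receptor of Vegfc, Tie1 (1.33), the orphan partner of Tek, and Aplnr (1.72). All 9 differences were positive, against 50.7% of all genes. Of the 9, 5 had a limma adjusted p under 0.05, against 1.14% of all genes in this direction, the fifth being Kdr, the main signalling receptor of Vegfa, at 0.98. Nrp2, Angpt4, Tek and Vegfd had differences of 0.76, 0.95, 0.44 and 0.20. At day 3 none of the 9 was past the threshold between CAP and P-F127.

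At day 6, 2 of the 9 fell in CAP wounds, Flt1 and Aplnr, against 2.34% of all genes. Aplnr was at 25.9, 5.18 and 19.3 TPM under CAP and at 37.1, 31.4 and 43.8 TPM under P-F127 (-1.43 ± 0.55, limma adjusted p = 0.240). Flt1 was at 11.6, 2.78 and 9.53 TPM under CAP and at 15.7, 14.3 and 17.9 TPM under P-F127 (-1.22 ± 0.50, limma adjusted p = 0.249). In neither gene did the groups overlap, and in both replicate 2 was the library far under the rest. Without it Aplnr was at -0.73 and Flt1 at -0.59, and none of the 9 was past the threshold.

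Kdr, Flt4, Tie1 and Nrp2 had differences of -1.11, -1.17, -0.96 and -0.88 at day 6, and Angpt4 and Vegfd -0.65 and -0.04. Without replicate 2 these 6 were at -0.52, -0.54, -0.53, -0.52, -0.46 and 0.23. Tek had a level in replicate 2 within the range of the P-F127 libraries. It was at 16.8, 15.1 and 16.9 TPM under CAP and at 18.1, 13.4 and 18.3 TPM under P-F127, a difference of -0.02 with a 95% interval from -0.38 to 0.35, and of 0.035 without replicate 2. The pairs of ligand and receptor of the apelin system, Apln with Aplnr, and of Flt1 with Pgf were thus both past the threshold at day 6 with all libraries, and only the ligands without replicate 2. The change of the CAP effect between days was past the threshold for 3 of the 9, Flt4 (-1.53), Nrp2 (-1.14) and Angpt4 (-1.55). Of all genes 2.73% were past it in this direction. Without replicate 2 it was past it for none of the 9.

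**Figure D3:**
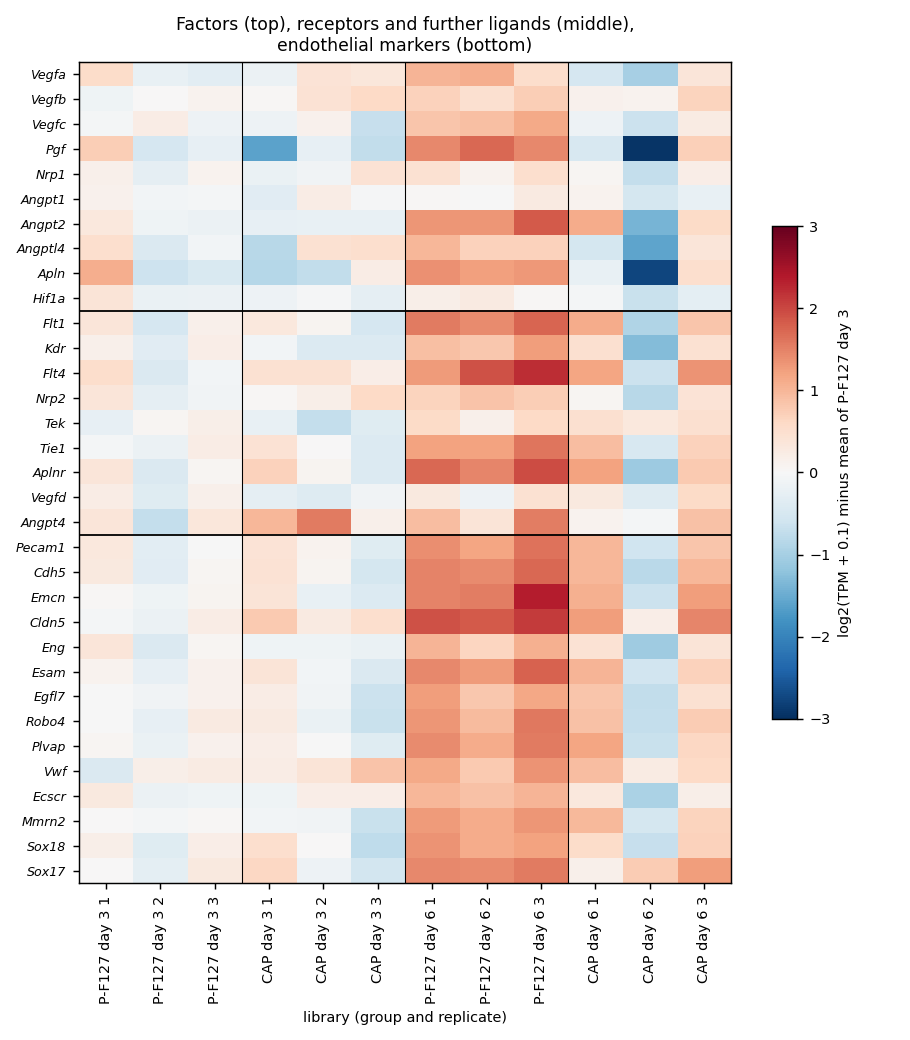
Level of the 10 factors (top), 9 receptors and further ligands (middle) and 14 endothelial markers (bottom) in each library (columns), as log2(TPM + 0.1) minus the mean of the 3 P-F127 libraries at day 3; red is higher and blue lower. The 3 P-F127 libraries at day 6 are red in nearly all rows, replicates 1 and 3 of CAP at day 6 are paler, and replicate 2 is blue in most rows, with Tek, Vwf, Cldn5 and Sox17 among the exceptions.

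Endothelial markers were described as a list of 14. In P-F127 wounds 12 of them rose from day 3 to day 6, against 2.13% of all genes, and all 14 were higher without overlap, against 10.8%, with a median of 1.32. The tight junction gene Cldn5 rose by 1.95, Plvap, a component of endothelial diaphragms, by 1.36, Mmrn2 by 1.23 and Pecam1 (CD31) by 1.41. None of the 14 was near 0, and their summed level was between 259 and 346 TPM at day 3 and between 639 and 843 TPM at day 6 in P-F127 wounds. In CAP wounds the sum was between 251 and 354 TPM at day 3 and between 190 and 562 TPM at day 6. CAP against P-F127 at day 6 gave 6 of 14 lower past the threshold, against 2.34% of all genes, and 14 of 14 negative, against 65.7%, with a median of -0.99, and without replicate 2 it gave 0 of 14 past it, 14 negative and a median of -0.53. The mean log2 level of the 14 differed by -0.97 in CAP wounds at day 6 (exact permutation p = 0.1), and by -0.54 without replicate 2 (exact permutation p = 0.1).

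Set against that mean in each library, a measure added after the data had been seen, the day 6 difference was -1.47 for Pgf (exact permutation p = 0.2) and -1.16 for Apln (exact permutation p = 0.1). The same measure was -0.43 for Angpt2, -0.41 for Angptl4, -0.29 for Vegfa and -0.17 for Vegfc, with exact permutation p-values between 0.3 and 0.6, and it was positive for the other four: 0.66 for Angpt1 and 0.47 for Nrp1 (exact permutation p = 0.1 each), and 0.63 for Vegfb and 0.47 for Hif1a (exact permutation p = 0.3 each). Without replicate 2 it was -0.88 for Pgf, -0.62 for Apln, -0.41 for Vegfa, -0.36 for Vegfc, -0.34 for Angptl4 and -0.11 for Angpt2, and it was 0.39 for Angpt1, 0.32 for Nrp1, 0.31 for Vegfb and 0.20 for Hif1a. Over the 12 libraries the log2 level of Angpt2 had a Pearson r of 0.939 with the endothelial mean, Vegfc 0.857, Pgf 0.776 and Apln 0.734, while Angpt1 had 0.437 and Hif1a 0.545. These correlations describe libraries that share the 4 groups and carry no test.

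Markers of other cell types were measured in the same libraries. All 7 macrophage markers were negative in CAP against P-F127 wounds at day 6, as were 65.7% of all genes, with a median of -0.59 against -0.12. Itgam (-1.04), an integrin of myeloid cells, and the chemokine receptor gene Ccr2 (-1.04) fell past the threshold, which 2.34% of all genes did. The summed macrophage level was between 6971 and 10020.1 TPM under P-F127 and between 4093 and 9229.6 TPM under CAP. Without replicate 2 the median was -0.34 and 0 of 7 were past the threshold.

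Neutrophil markers were negative in 6 of the 6 tested, as were 65.7% of all genes, with a median of -1.22 and none past the threshold. Without replicate 2 their median was -0.56. Their sum was between 1769 and 3319 TPM under P-F127 and between 281 and 2675 TPM under CAP. Of the red cell genes, mainly globins, 5 of the 5 tested rose over time in P-F127 wounds (2.13% of all genes) with a median of 2.38, and their sum went from between 514 and 753 TPM at day 3 to between 2113 and 5622 TPM at day 6. In CAP wounds the sum was between 2357 and 2803 TPM at day 3 and between 716 and 3184 TPM at day 6. At day 3, 5 of the 5 tested were higher in CAP than in P-F127 wounds past the threshold, against 0.426% of all genes, with a median of 2.11. Of these, 3 had a limma adjusted p under 0.05, the only 3 genes of the whole table to do so. CAP against P-F127 at day 6 gave 5 of 5 negative, against 65.7% of all genes, with a median of -1.12. None was past the threshold, against 2.34% of all genes lower, and the median was -0.61 without replicate 2. Lymphatic markers had 1 of 5 lower past the threshold at day 6, Pdpn, and fibroblast markers 0 of 7, against 2.34% of all genes. Pdpn was the most abundant of the 5, at 317, 291 and 278 TPM under P-F127 at day 6, where Prox1 was at 0.479, 0.557 and 0.520 TPM. Whether the Pdpn transcripts came from lymphatic cells was not tested. Of 6 adipocyte markers 1 was higher past the threshold, Lep, against 1.46% of all genes. Without replicate 2 these counts were 0 lower, 0 lower and 3 higher, against 0.931% of all genes lower and 0.762% higher. The part of these cell types in the differences of the factors was not tested.

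**Figure D4:**
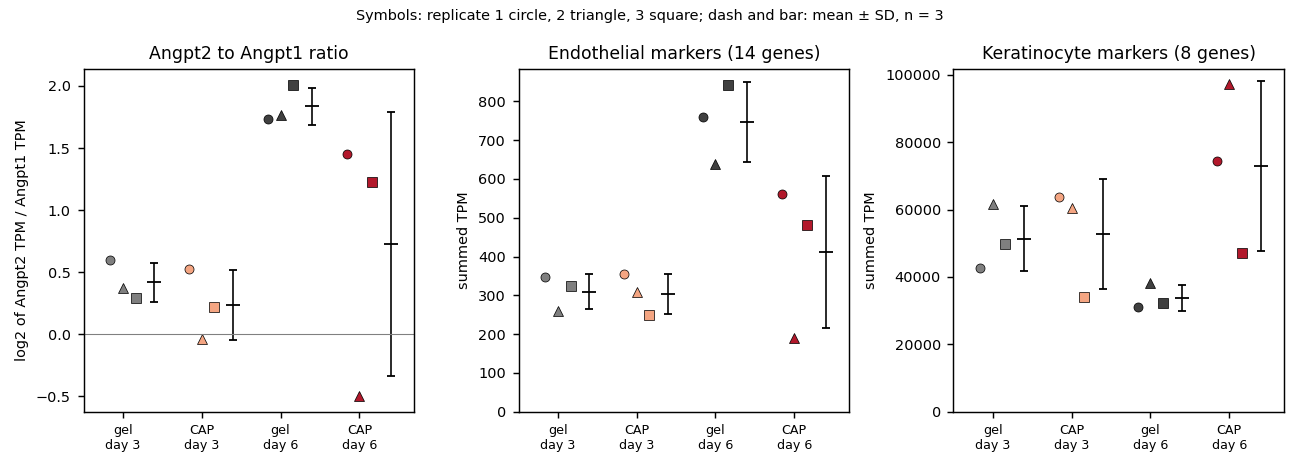
Left, log2 of the Angpt2 level over the Angpt1 level; middle and right, summed TPM of 14 endothelial and of 8 keratinocyte markers (vertical axes), by group (horizontal axes), with replicates as circle, triangle and square and the mean ± SD of 3 libraries as dash and bar. Replicate 2 of CAP at day 6 has the lowest ratio, the lowest endothelial sum of 190 TPM and the highest keratinocyte sum of 97417 TPM.

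Genes known from the tip cells of sprouting vessels were measured as a list of 9. In P-F127 wounds 5 of them rose from day 3 to day 6, against 2.13% of all genes, among them Mcam by 1.62, Cxcr4 by 1.29 and Kcne3 by 2.42. The median was 1.29 and 8 of the 9 were positive, against 50.7% of all genes. Cd34, a surface glycoprotein of endothelial and stem cells, was the exception, at 286.8, 303.2 and 339.9 TPM at day 3 and 260.8, 156.0 and 240.5 TPM at day 6, lower without overlap but under 2-fold (-0.53). Between CAP and P-F127 at day 3, 0 of the 9 were past the threshold, against 1.58% of all genes, with 3 positive and 6 negative. Higher in CAP without overlap were 2 of the 9, Cxcr4 and Kcne3, against 2.86% of all genes. Cxcr4 was at 38.15, 52.0 and 87.0 TPM under CAP and at 32.9, 34.0 and 34.5 TPM under P-F127. At day 6, 1 of the 9 was lower in CAP wounds, against 2.34% of all genes, Mcam, an adhesion molecule of endothelial and mural cells (-1.25). Of the 9, 8 were negative, against 65.7% of all genes, with a median of -0.94. Without replicate 2 none was past the threshold, Mcam was at -0.62 and the median was -0.43.

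Pericyte and smooth muscle markers showed 5 of 9 higher with time in P-F127 wounds, against 2.13% of all genes. In CAP wounds at day 6, 2 of 9 were lower past the threshold, against 2.34% of all genes, Tagln (-1.32) and Acta2 (-1.53), both contractile genes. The median was -0.72, with 7 negative and 2 positive, where 65.7% of all genes were negative. Kcnj8, a potassium channel gene of pericytes, was higher without overlap, at 8.78, 12.6 and 9.40 TPM under CAP and 5.69, 5.68 and 8.48 TPM under P-F127 (0.63, not past the threshold). Without replicate 2, 0 of 9 were lower past the threshold, Tagln was at -0.91, Acta2 at -0.89 and Kcnj8 at 0.48, and the median was -0.37 with 6 negative.

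Of 8 keratinocyte markers 6 were positive and 2 negative in CAP against P-F127 wounds at day 6, with a median of 0.34. Of all genes 34.3% were positive. Krt1 and Krt10, keratins of the differentiating layers, were higher in CAP wounds at day 6 by 1.86 and 1.62, the 2 of 8 past the threshold, which 1.46% of all genes were in this direction. Krt17 and Krt6a, keratins of activated epidermis, were the negative ones, at -0.39 and -0.023. The summed level of the 8 was between 31106 and 38279 TPM under P-F127 and between 47106 and 97417 TPM under CAP. Without replicate 2 the number higher was also 2 of 8, with Krt1 at 1.51 and Krt10 at 1.24, 7 positive and a median of 0.34. TPM is a share of each library, and the part that these abundant transcripts had in the lower levels of other genes was not tested beyond the alternative scalings.

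Hif1a is regulated mainly after transcription, so the other genes of its pathway were described beside it. Of 9 genes for HIF subunits, hydroxylases and the ubiquitin ligase component Vhl, 1 was past the threshold in any comparison. Epas1, the HIF-2 subunit abundant in endothelium, rose from 54.2, 46.2 and 36.1 TPM at day 3 to 96.7, 95.8 and 99.0 TPM at day 6 in P-F127 wounds (1.11 ± 0.14, limma adjusted p = 0.0175). At day 6 it was at 74.9, 53.4 and 83.0 TPM under CAP, under every P-F127 library but by less than 2-fold (-0.49 ± 0.17, limma adjusted p = 0.226, exact permutation p = 0.1). Without replicate 2 its difference was -0.30. Differences between CAP and P-F127 at day 6 were -0.20 for Arnt, the shared partner subunit, -0.29 for Arnt2, 0.17 for Hif3a and -0.28 for Vhl. The hydroxylases Egln1, Egln2 and Egln3, which mark HIF subunits for degradation, had 0.10, -0.04 and -0.38, and Hif1an had 0.10. Without replicate 2 none of the 9 was past the threshold, and their median was -0.16 in place of -0.20.

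Of 20 genes known to be induced through HIF-1, 2 rose from day 3 to day 6 in P-F127 wounds, the vasodilator peptide gene Adm (1.87) and Ankrd37 (1.05), against 2.13% of all genes, and the median of the 20 was 0.10. At day 6, 1 was lower in CAP wounds past the threshold, Adm (-1.17 ± 0.42, limma adjusted p = 0.230), as were 2.34% of all genes. Of the 20, 19 were negative, against 65.7% of all genes, with a median of -0.59 against -0.12. Without replicate 2 none of the 20 was past the threshold, Adm was at -0.69, 17 were negative and the median was -0.29.

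Among 10 inhibitors of angiogenesis, 1 was lower past the threshold at day 6, against 2.34% of all genes. Of the 10, 9 were negative, against 65.7% of all genes, with a median of -0.52. Thbs1, which encodes the matrix protein thrombospondin-1, was lower in CAP wounds (-1.41 ± 0.47, limma adjusted p = 0.225), although its groups overlapped, and its CAP effect changed by -2.06 between the days. Without replicate 2 its difference was -0.91, its change between the days -1.56, 0 of the 10 were past the threshold at day 6, 9 were negative and the median was -0.37. Angptl4 is also a known target of the lipid-sensing PPAR receptors. Of 8 other lipid genes induced through PPARs, Cd36 (1.23) and Plin2 (1.18) were higher past the threshold in CAP wounds at day 3, against 0.426% of all genes. Angptl4 had a difference of 0.05 at that day. At day 6, 0 of the 8 were past the threshold, with and without replicate 2. With all libraries 2.34% of all genes were lower past it and 1.46% higher. The part of PPARs in the Angptl4 level was not tested.

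Across the 12 libraries the factors with similar profiles were Pgf and Apln (Pearson r of 0.944 on log2 levels), Vegfa and Angptl4 (0.928) and Pgf and Angptl4 (0.897), while Vegfb and Hif1a had the lowest r, 0.0773. Of the 16169 genes whose mean reached 1 TPM, the most similar to Angptl4 was the hypoxia-responsive gene Ndrg1 (0.982), and the most similar to Apln was Arhgap31 (0.990). The nearest to Angpt2 were Parm1 (0.970), Piezo2 (0.967) and Mcam (0.964), and the nearest to Vegfa was Chst11 (0.967). Pgf was nearest to E2f3 (0.968), Vegfc to Rflnb (0.961), Vegfb to Hpgds (0.964), Nrp1 to Sh3bgrl (0.975), Hif1a to Osmr (0.962) and Angpt1, with the lowest value, to Ercc6l2 (0.878). These were the highest of many values over libraries that share 4 groups, and they are given as a description.

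All 10 genes are protein-coding, and their positions in the tables equal those of GENCODE M21 on GRCm38. Vegfa lies at chr17:46016993-46032369 (minus strand), Pgf at chr12:85166635-85177790 (minus), Apln at chrX:48025146-48034853 (minus), Angptl4 at chr17:33773750-33781830 (minus) and Vegfc at chr8:54077606-54187096 (plus). Angpt2, at chr8:18690263-18741562 (minus), lies inside Mcph1 on the opposite strand, which had a mean of 5.23 TPM, and the sources do not say whether counting used the strand, so reads of the pair may not have been separated. Angpt1 lies at chr15:42424723-42676977 (minus), Vegfb at chr19:6982473-6987651 (minus), Nrp1 at chr8:128358604-128503363 (plus) and Hif1a at chr12:73901375-73947530 (plus), and the genes that overlap Angpt1, Nrp1 and Hif1a had means under 1 TPM.

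The promoters of 3 factors, Vegfa, Vegfc and Apln, are printed because these genes were lower past the threshold at day 6 and their windows end before the annotated gene begins. The sequences are the 250 bases before the start site in RefSeq on GRCm38.p6, read 5′ to 3′ on the gene's strand, with capitals for the GC box GGGCGG or its complement CCGCCC, the letters bound by SP1-type factors. The positions are chr17:46032378-46032627 (minus) for Vegfa, chr8:54077282-54077531 (plus) for Vegfc and chrX:48034854-48035103 (minus) for Apln.
Vegfa: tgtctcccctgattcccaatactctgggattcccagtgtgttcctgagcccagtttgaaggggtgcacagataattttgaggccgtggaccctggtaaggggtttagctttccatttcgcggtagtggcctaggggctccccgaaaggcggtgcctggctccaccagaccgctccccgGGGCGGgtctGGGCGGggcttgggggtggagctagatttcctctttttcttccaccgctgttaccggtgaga
Vegfc: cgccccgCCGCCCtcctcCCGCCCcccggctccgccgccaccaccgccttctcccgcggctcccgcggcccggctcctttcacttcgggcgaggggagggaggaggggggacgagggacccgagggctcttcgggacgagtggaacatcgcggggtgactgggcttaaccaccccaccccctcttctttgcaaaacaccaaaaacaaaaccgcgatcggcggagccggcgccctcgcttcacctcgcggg
Apln: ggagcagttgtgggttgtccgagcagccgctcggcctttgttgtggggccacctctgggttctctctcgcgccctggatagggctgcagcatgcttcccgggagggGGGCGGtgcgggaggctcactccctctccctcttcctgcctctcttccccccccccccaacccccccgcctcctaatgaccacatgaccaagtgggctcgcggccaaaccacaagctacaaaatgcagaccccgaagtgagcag

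A GC box stood 2 times in the window of Vegfa, 2 times in that of Vegfc and 1 time in that of Apln. RefSeq windows were matched for 7 of the 10 factors, at 9 start sites, and 7 of these sites in 6 factors held the box on either strand, against 32.7% of all 32851 promoter windows of this length. The hypoxia response core ACGTG (or CACGT) stood at 2 of the 9 sites, that of Hif1a and a second start of Vegfa, against 16.6% of all windows. Both of these windows lie inside the annotated gene and not before it. The E-box CACGTG, which contains that core, stood at the Hif1a site alone, against 6.02%. No entry was matched for Angpt1, Angpt2 and Angptl4. These matches describe letters in the windows, and binding was not measured.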

How the data were processed

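RNA was extracted with TRIzol and libraries were prepared with the SureSelect XT HS2 mRNA kit. Per the labels and the study's methods, reads were converted with bcl2fastq, trimmed with Trimmomatic 0.36 and assigned to mm10, and the authors estimated expression with StringTie. The aligner, the gene annotation and the use of strand were not given in the sources used here. The deposited values are TPM, 1 table per library with 55487 genes, in which 0.0001 stands in place of 0. Groups were taken from the sample titles. Where a symbol was listed more than once, the row with the higher mean was used.

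TPM were tested as log2(TPM + 0.1) with limma 3.58.1 (R 4.3.3, intensity trend), among genes whose mean reached 0.3 TPM in each group compared, each comparison on its own 6 libraries, and the change of the CAP effect on all 12, among genes at 0.3 TPM in at least 1 group. Differences are on this log2 scale, which understates changes of low genes. P-values were adjusted by Benjamini-Hochberg over all genes tested. Single values were compared by 2-sided exact permutation tests. The fits were tested on simulated data. The genes named were the 10 factors, the receptor and HIF pathway lists, up to 3 genes past the threshold of each other list with the smallest p in a comparison, and the genes most similar to each factor. Pecam1, Cd34, Kcnj8, Krt17 and Krt6a were also named, after their values were seen. The factors and the gene lists were chosen with earlier results of these data known. Alternatives were another pseudocount, no filter, 2 further scalings, a replicate block, a joint fit and leaving out each library. Figures were drawn with matplotlib 3.10.9.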

Additional observations from a re-analysis of the deposited data

Results flagged for a closer look

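The CAP effect at day 6 differed from that at day 3 by the interaction test of limma, at an unadjusted p under 0.05 and at least 2-fold, in 4 genes. They were 1 of the 10 factors and 3 of the 9 receptors and further ligands tested, against 2.73% of all genes in this direction. The differences were -1.45 for Vegfa, -1.53 for Flt4, -1.14 for Nrp2 and -1.55 for Angpt4 (log2), each with a limma adjusted p between 0.428 and 0.436. Of these, Vegfa was past the threshold without replicate 2 of CAP at day 6.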

How the results depend on the processing

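The differences of the factors were recomputed under 6 alternative settings and with each library left out: 591 values kept their direction and their side of the threshold, 20 came past it, 14 no longer passed it and 25 reversed. The number of factors past the threshold with each library left out was 0 to 1 at day 3, 2 to 6 at day 6, 2 to 5 over time in P-F127 wounds, 0 to 1 over time in CAP wounds and 1 to 5 for the change of the CAP effect. In the joint fit of all 12 libraries 1 factor in place of 3 was past it over time in P-F127 wounds, with Pgf at a limma p of 0.0617 and Apln at 0.0998.

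Reversals were of differences not past the threshold. At day 3 Angpt1 was 0.00429 with median-ratio scaling and 0.0565 with quantile normalization. Over time in CAP wounds Pgf was 0.0444 with a pseudocount of 1 TPM and 0.0326 with quantile normalization, and Vegfb 0.000566 with the latter. With a library left out, the day 3 ranges were -0.19 to 0.093 for Angpt1, -0.18 to 0.48 for Angptl4, -0.15 to 0.17 for Nrp1, -0.80 to 0.084 for Apln and -0.25 to 0.043 for Hif1a. Those over time in CAP wounds were -0.84 to 0.98 for Pgf, -0.24 to 0.064 for Vegfb, -0.16 to 0.29 for Vegfc, -0.18 to 1.08 for Angpt2, -1.04 to 0.59 for Apln and -0.37 to 0.081 for Nrp1.

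At day 6 Vegfc was under 2-fold with a pseudocount of 1 TPM (-0.84) and with quantile normalization (-0.95). Angpt2 came past the threshold in the joint fit, with a pseudocount of 1 TPM and with the replicate block. Median-ratio scaling moved the median of all genes at day 6 from -0.12 to -0.01, and the 10 factors stayed negative. Of all calls at day 6, 61.5% were lower in CAP wounds with TPM as deposited, 41.8% with that scaling and 37.5% with quantile normalization, and at day 3 the shares were 73.1%, 66.8% and 61.3%. Correlations of same-numbered deviations lay between -0.11 and 0.22. In CAP against P-F127 at day 6 each number correlated best with its own, at 0.017, 0.094 and 0.073. With 3 libraries in each group such low values cannot decide whether the replicate numbers pair the libraries. With the number as a block, 6 factors in place of 5 were past the threshold at day 6 (725 genes in place of 697), and in the other comparisons their number was unchanged.

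The genes past the threshold at day 3 were 290, and 568 without a filter, 154 with a pseudocount of 1 TPM and 510 without replicate 1 of CAP at day 3. At day 6 there were 697, and 385 with that pseudocount, 311 without replicate 2 of CAP and 1483 without replicate 3 of CAP. Over time there were 688 in P-F127 wounds (1156 without a filter, 405 with that pseudocount) and 507 in CAP wounds (842, 299, and 886 without replicate 3 at day 6). For the change of the CAP effect there were 994, and 580 with that pseudocount, 657 without replicate 2 and 1777 without replicate 3 of CAP at day 6. The causes were not tested. TPM hold no depth, which limits low genes such as Vegfc.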
